A study of Mus musculus with 19 samples.

Results

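The genes described are the enzymes, carriers and regulators that build fatty acids and join them into triglyceride, followed across tissue labelled sciatic nerve from mice with and without diabetes and with and without rosiglitazone. They are a list of 35 genes set by their roles in the pathway and not by a threshold on values, drawn up with earlier results of these data known. Of these, 34 had a probe set that carried their symbol alone, and 33 lay above the filter on low values and were tested among 13460 genes. Acsl1 was not named by a probe set of its own here, and Mogat2, an acyltransferase of monoacylglycerol, lay below the filter with log2 intensities of 4.77 to 6.07. All mice were of the inbred strain DBA/2J, and diabetes was induced with streptozotocin (STZ), a toxin of the insulin-producing cells. The control vehicle group held 4 arrays (CV702 to CV705), without STZ or rosiglitazone. The diabetic vehicle group held 5 arrays (DV706 to DV710) from mice given STZ. The control rosiglitazone group held 5 arrays (CR711 to CR715) from mice given rosiglitazone without STZ, and the diabetic rosiglitazone group 5 arrays (DR716 to DR720) from mice given both. Each array stood for 1 mouse, and 1 array of the control vehicle group had been removed by the authors after quality control. Age, dose and length of treatment are not given in the sources used here.

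Fatty acid synthesis starts from citrate that leaves the mitochondrion and is cut to acetyl-CoA in the cytosol. Acetyl-CoA carboxylase turns this into malonyl-CoA, fatty acid synthase builds the chain with NADPH, and elongases and desaturases lengthen it and add unsaturated bonds. Chains activated with coenzyme A are then placed on glycerol phosphate, and the last acyl transfer gives triglyceride. In peripheral nerve, Schwann cells make fatty acids for the lipids of myelin, while fat cells of the outer nerve sheath and of fat attached to the nerve store triglyceride. SREBP-1c and ChREBP, encoded by Srebf1 and Mlxipl, are transcription factors of this pathway, and rosiglitazone activates PPAR gamma, the receptor that drives fat cell differentiation.

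The arrays differed in what tissue they held. Markers of myelinating Schwann cells were high throughout: the log2 intensity of Mbp lay between 13.83 and 14.44 and that of Pmp22 between 13.82 and 14.34. Adipoq, which encodes the fat cell hormone adiponectin, ranged from 5.48 on DV709 and 8.04 on CV702 to 13.80 on CR715, and the summed intensity of 8 of 10 listed adipocyte markers ranged from 10.31 to 16.25 on the log2 scale. By group that sum lay at 11.58 to 15.16 in control vehicle, 10.31 to 15.13 in diabetic vehicle, 14.10 to 16.25 in control rosiglitazone and 14.20 to 15.67 in diabetic rosiglitazone. Ucp1, the defining gene of brown fat, was at 11.04 on CR715 and at 4.46 to 6.27 on the other 18 arrays. Cell bodies of sensory neurons are not part of sciatic nerve, and their marker Isl1 lay between 9.47 and 11.35 on 14 arrays, and between 3.83 and 6.41 on DV706, DV707, DV709, CR715 and DR716. On those 14 arrays the data thus went against the tissue label, and the source of the neuron transcripts was not tested. The Gapdh control probe sets at the 3' end exceeded those at the 5' end, a sign of RNA breakdown, by log2 differences of 3.71 on DV706, 4.38 on DV707 and 1.00 to 1.75 elsewhere. Levels below are log2 intensities given in array order within each group. Probe sets differ in their response, so a level is compared only with the same gene on other arrays.

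Of the genes that supply carbon and NADPH, Acly varied least between arrays on the probe sets used. It encodes ATP citrate lyase, which cuts citrate to acetyl-CoA. Acly has 6 probe sets, whose differences for diabetes under vehicle ran from -0.68 to 0.16. Acly levels were 13.00, 12.99, 13.07 and 13.07 in control vehicle and 12.85, 12.86, 13.20, 12.82 and 13.05 in diabetic vehicle. Acly in the rosiglitazone groups was at 13.05, 13.13, 13.11, 13.03 and 13.23 without and 12.92, 13.17, 13.14, 12.96 and 13.01 with diabetes. The array values overlapped among all 4 groups, and the group means lay at 13.03 ± 0.04 (SD, n = 4) in control vehicle, 12.96 ± 0.16 (SD, n = 5) in diabetic vehicle, 13.11 ± 0.08 (SD, n = 5) in control rosiglitazone and 13.04 ± 0.11 (SD, n = 5) in diabetic rosiglitazone. Slc25a1 encodes the mitochondrial citrate carrier. Slc25a1 levels were 9.49, 9.33, 9.43 and 9.25 in control vehicle and 8.85, 8.58, 9.49, 9.43 and 9.24 in diabetic vehicle. Slc25a1 in the rosiglitazone groups was at 9.84, 9.59, 9.64, 9.51 and 10.66 without and 9.53, 9.46, 9.36, 9.33 and 9.53 with diabetes. CR715, CR711, CR713 and CR712 were the highest of all arrays, and DV707 and DV706 the lowest. Acss2 makes acetyl-CoA from acetate. Acss2 levels were 10.75, 10.65, 10.63 and 10.69 in control vehicle and 10.74, 10.48, 11.07, 10.03 and 10.50 in diabetic vehicle. Acss2 in the rosiglitazone groups was at 11.24, 10.92, 11.18, 10.82 and 11.60 without and 10.36, 10.84, 10.84, 10.17 and 10.83 with diabetes. DV709, DR719 and DR716 were the lowest, and every control rosiglitazone array lay above every control vehicle array. Me1, malic enzyme, yields NADPH. Me1 levels were 10.68, 10.65, 10.42 and 10.41 in control vehicle and 11.64, 10.86, 10.70, 10.94 and 10.37 in diabetic vehicle. Me1 in the rosiglitazone groups was at 10.95, 10.78, 10.71, 10.55 and 10.92 without and 10.68, 10.37, 10.31, 10.40 and 10.61 with diabetes. The highest value was on DV706, and all groups overlapped.

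The genes of chain synthesis were highest on CR715. Acaca encodes acetyl-CoA carboxylase alpha, which commits acetyl-CoA to fatty acid synthesis. Acaca levels were 9.59, 9.33, 9.25 and 9.50 in control vehicle and 10.04, 10.28, 9.90, 9.55 and 9.26 in diabetic vehicle. Acaca in the rosiglitazone groups was at 10.22, 9.68, 9.77, 9.64 and 11.01 without and 10.00, 9.35, 9.63, 9.32 and 9.71 with diabetes. All control rosiglitazone arrays exceeded all control vehicle arrays, and the diabetic arrays spanned both. Acacb, the carboxylase at the mitochondrial surface whose malonyl-CoA restrains fatty acid oxidation, ranged from 9.20 on DR717 to 11.44 on CR715. Fasn encodes fatty acid synthase. Fasn levels were 10.57, 10.56, 10.74 and 11.12 in control vehicle and 10.42, 9.99, 10.80, 10.56 and 10.30 in diabetic vehicle. Fasn in the rosiglitazone groups was at 11.11, 10.99, 11.19, 10.87 and 12.99 without and 10.99, 10.51, 10.72, 10.58 and 11.06 with diabetes. CR715 stood far above the other control rosiglitazone arrays, which lay close together from 10.87 to 11.19. The group means of Fasn were 10.75 ± 0.26 (SD, n = 4) in control vehicle, 10.41 ± 0.30 (SD, n = 5) in diabetic vehicle, 11.43 ± 0.88 (SD, n = 5) in control rosiglitazone and 10.77 ± 0.25 (SD, n = 5) in diabetic rosiglitazone.

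The desaturases did not follow Fasn on every array. Scd1 encodes stearoyl-CoA desaturase, which makes monounsaturated fatty acids. Scd1 levels were 13.49, 13.56, 13.44 and 13.84 in control vehicle and 13.30, 13.28, 13.44, 13.47 and 13.45 in diabetic vehicle. Scd1 in the rosiglitazone groups was at 13.57, 13.69, 13.65, 13.55 and 14.11 without and 13.41, 13.49, 13.45, 13.46 and 13.28 with diabetes. Both control groups reached higher than the diabetic groups, with CR715 again the highest. Scd2, a close relative of Scd1, ranged from 12.95 on CR715 to 13.56 on CR713, so that both desaturases were at opposite ends on CR715. Fads1 and Fads2 add unsaturated bonds to polyunsaturated fatty acids. Fads1 levels were 12.42, 12.00, 11.91 and 11.94 in control vehicle and 12.47, 12.17, 12.11, 12.22 and 11.99 in diabetic vehicle. Fads1 in the rosiglitazone groups was at 12.23, 12.12, 12.32, 12.08 and 11.52 without and 11.95, 11.91, 12.01, 12.07 and 12.04 with diabetes. The lowest Fads1 value was on CR715 and the highest on DV706 and CV702. Fads2 levels were 12.18, 11.91, 11.83 and 11.96 in control vehicle and 10.15, 9.34, 11.92, 11.57 and 11.62 in diabetic vehicle. Fads2 in the rosiglitazone groups was at 11.75, 11.62, 11.90, 11.67 and 10.38 without and 10.32, 11.38, 11.45, 11.33 and 11.15 with diabetes. Fads2 was low on DV706, DV707, CR715 and DR716, which are 4 of the 5 arrays low in Isl1. Fads3 is a further member of that family. Fads3 levels were 10.45, 10.40, 10.49 and 10.40 in control vehicle and 10.15, 9.95, 10.52, 10.61 and 10.14 in diabetic vehicle. Fads3 in the rosiglitazone groups was at 11.00, 11.00, 10.45, 10.64 and 11.52 without and 10.29, 10.52, 10.52, 10.54 and 10.67 with diabetes. Its highest values were those of CR715, CR711 and CR712, and its lowest those of DV707, DV710 and DV706.

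Elongation genes were low on a few arrays. Elovl6 lengthens palmitate. Elovl6 levels were 11.13, 10.86, 10.64 and 10.66 in control vehicle and 11.78, 10.73, 11.08, 10.65 and 10.70 in diabetic vehicle. Elovl6 in the rosiglitazone groups was at 11.34, 11.11, 11.30, 11.04 and 10.12 without and 10.14, 10.80, 10.90, 10.77 and 10.98 with diabetes. CR715 and DR716 were the lowest and DV706 the highest. Elovl7 is another elongase. Elovl7 levels were 11.82, 11.54, 11.50 and 11.24 in control vehicle and 11.32, 10.38, 11.69, 11.31 and 11.28 in diabetic vehicle. Elovl7 in the rosiglitazone groups was at 11.92, 11.72, 11.53, 11.59 and 9.22 without and 9.59, 11.34, 11.56, 11.09 and 11.47 with diabetes. CR715, DR716 and DV707 lay far below the rest. Hsd17b12 encodes the ketoacyl reductase of the elongation cycle. Hsd17b12 levels were 12.89, 12.76, 12.83 and 12.83 in control vehicle and 12.29, 12.30, 12.79, 12.71 and 12.77 in diabetic vehicle. Hsd17b12 in the rosiglitazone groups was at 12.87, 12.92, 12.93, 12.88 and 13.01 without and 12.63, 12.90, 12.85, 12.78 and 12.79 with diabetes. DV706 and DV707 were the lowest, and the other arrays lay close together. Tecr encodes its enoyl reductase. Tecr levels were 12.81, 12.79, 12.67 and 12.56 in control vehicle and 11.88, 11.09, 13.13, 12.28 and 12.91 in diabetic vehicle. Tecr in the rosiglitazone groups was at 12.80, 12.98, 12.99, 12.93 and 12.43 without and 11.91, 13.07, 13.00, 12.56 and 13.16 with diabetes. DV707, DV706 and DR716 were lowest. Elovl1 ranged from 12.48 to 13.34 and Elovl5 from 13.10 to 13.47 over the 19 arrays.

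Acyl-CoA synthetases activate fatty acids for use. Acsl5 lies at the outer mitochondrial membrane and the endoplasmic reticulum. Acsl5 levels were 10.94, 11.17, 11.30 and 11.47 in control vehicle and 11.73, 12.02, 11.41, 10.82 and 11.46 in diabetic vehicle. Acsl5 in the rosiglitazone groups was at 11.38, 11.45, 10.99, 11.19 and 11.73 without and 11.82, 11.31, 11.10, 11.42 and 11.47 with diabetes. DV709 was the lowest array, CV702 the second lowest, and DV707 and DR716 the highest. Acsl3 sits on lipid droplets and the endoplasmic reticulum. Acsl3 levels were 10.32, 9.85, 9.90 and 10.06 in control vehicle and 9.32, 9.48, 10.18, 9.64 and 9.82 in diabetic vehicle. Acsl3 in the rosiglitazone groups was at 9.79, 10.16, 10.20, 10.11 and 8.96 without and 9.45, 9.86, 10.05, 9.62 and 9.67 with diabetes. CR715 and DV706 were lowest, and CV702 was highest. Acsl4, which favours arachidonic acid, ranged from 10.39 to 11.29.

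Among genes of triglyceride assembly, Dgat2 and Agpat2 varied most between arrays. Gpam encodes the mitochondrial acyltransferase that places the first chain on glycerol phosphate. Gpam levels were 11.24, 11.24, 11.17 and 11.04 in control vehicle and 12.16, 12.10, 11.71, 11.23 and 11.39 in diabetic vehicle. Gpam in the rosiglitazone groups was at 11.56, 11.50, 11.41, 11.36 and 11.64 without and 11.80, 11.20, 11.26, 11.22 and 11.54 with diabetes. DV706 and DV707 were the highest, and the control vehicle arrays were the narrowest group. Agpat1 and Agpat3 place the second chain. Agpat1 levels were 8.52, 8.85, 8.60 and 8.52 in control vehicle and 8.26, 8.18, 8.37, 8.47 and 8.52 in diabetic vehicle. Agpat1 in the rosiglitazone groups was at 8.24, 8.46, 8.51, 8.61 and 8.65 without and 8.48, 8.46, 8.58, 8.61 and 8.50 with diabetes. The control vehicle arrays and DV710 lay above the other diabetic vehicle arrays. Agpat3 levels were 10.97, 10.76, 10.76 and 10.84 in control vehicle and 11.29, 11.04, 10.86, 11.14 and 10.91 in diabetic vehicle. Agpat3 in the rosiglitazone groups was at 10.82, 10.98, 10.91, 10.81 and 10.99 without and 10.80, 10.67, 10.74, 10.85 and 10.21 with diabetes. Every diabetic rosiglitazone array lay below every diabetic vehicle array, and DR720 was the lowest of all. Agpat2, the form whose loss causes lipodystrophy, ranged from 9.63 on CV702 to 12.89 on CR715. Lpin1, the phosphatidate phosphatase lipin, ranged from 9.64 on DV709 to 11.24 on CR715, and its relative Lpin2 from 9.60 to 10.49. Dgat1, an acyltransferase of the last step, ranged from 9.94 on CV705 to 12.10 on CR715. Dgat2 is the other acyltransferase of that step. Dgat2 levels were 8.40, 9.95, 9.65 and 10.69 in control vehicle and 9.44, 10.85, 9.56, 8.29 and 9.88 in diabetic vehicle. Dgat2 in the rosiglitazone groups was at 11.17, 11.19, 9.35, 9.60 and 12.29 without and 11.56, 9.50, 9.09, 9.60 and 9.84 with diabetes. DV709 and CV702 were lowest and CR715 and DR716 highest, and all groups overlapped.

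The regulators had wide ranges, those of Thrsp and Pnpla3 above all. Srebf1 levels were 10.80, 10.70, 10.82 and 10.74 in control vehicle and 11.37, 11.43, 10.76, 10.64 and 10.85 in diabetic vehicle. Srebf1 in the rosiglitazone groups was at 10.76, 11.07, 11.28, 10.76 and 11.72 without and 11.78, 10.89, 10.78, 11.07 and 10.96 with diabetes. Srebf1 was highest on DR716, CR715, DV707 and DV706. Mlxipl levels were 8.33, 7.25, 8.49 and 8.10 in control vehicle and 8.02, 8.84, 8.15, 6.26 and 7.81 in diabetic vehicle. Mlxipl in the rosiglitazone groups was at 8.32, 8.18, 8.10, 8.16 and 9.83 without and 9.74, 7.05, 7.99, 7.04 and 8.39 with diabetes. Mlxipl was lowest on DV709 and highest on CR715 and DR716. Thrsp encodes a nuclear protein of lipogenic tissues. Thrsp levels were 8.93, 10.41, 10.47 and 12.05 in control vehicle and 10.25, 10.69, 10.58, 7.30 and 11.49 in diabetic vehicle. Thrsp in the rosiglitazone groups was at 11.14, 11.16, 11.15, 10.17 and 13.72 without and 12.45, 10.63, 9.75, 11.77 and 10.64 with diabetes. The same pair of arrays was lowest as for Adipoq, DV709 and CV702, and CR715 was highest. Pnpla3 encodes a lipid droplet protein. Pnpla3 levels were 6.72, 8.14, 7.73 and 9.80 in control vehicle and 6.24, 6.66, 8.12, 5.78 and 7.34 in diabetic vehicle. Pnpla3 in the rosiglitazone groups was at 8.68, 8.66, 7.86, 8.20 and 11.80 without and 8.81, 7.73, 7.51, 7.15 and 7.78 with diabetes. DV709 was lowest, CR715 was highest with CV705 next, and the groups overlapped.

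**Figure D1:**
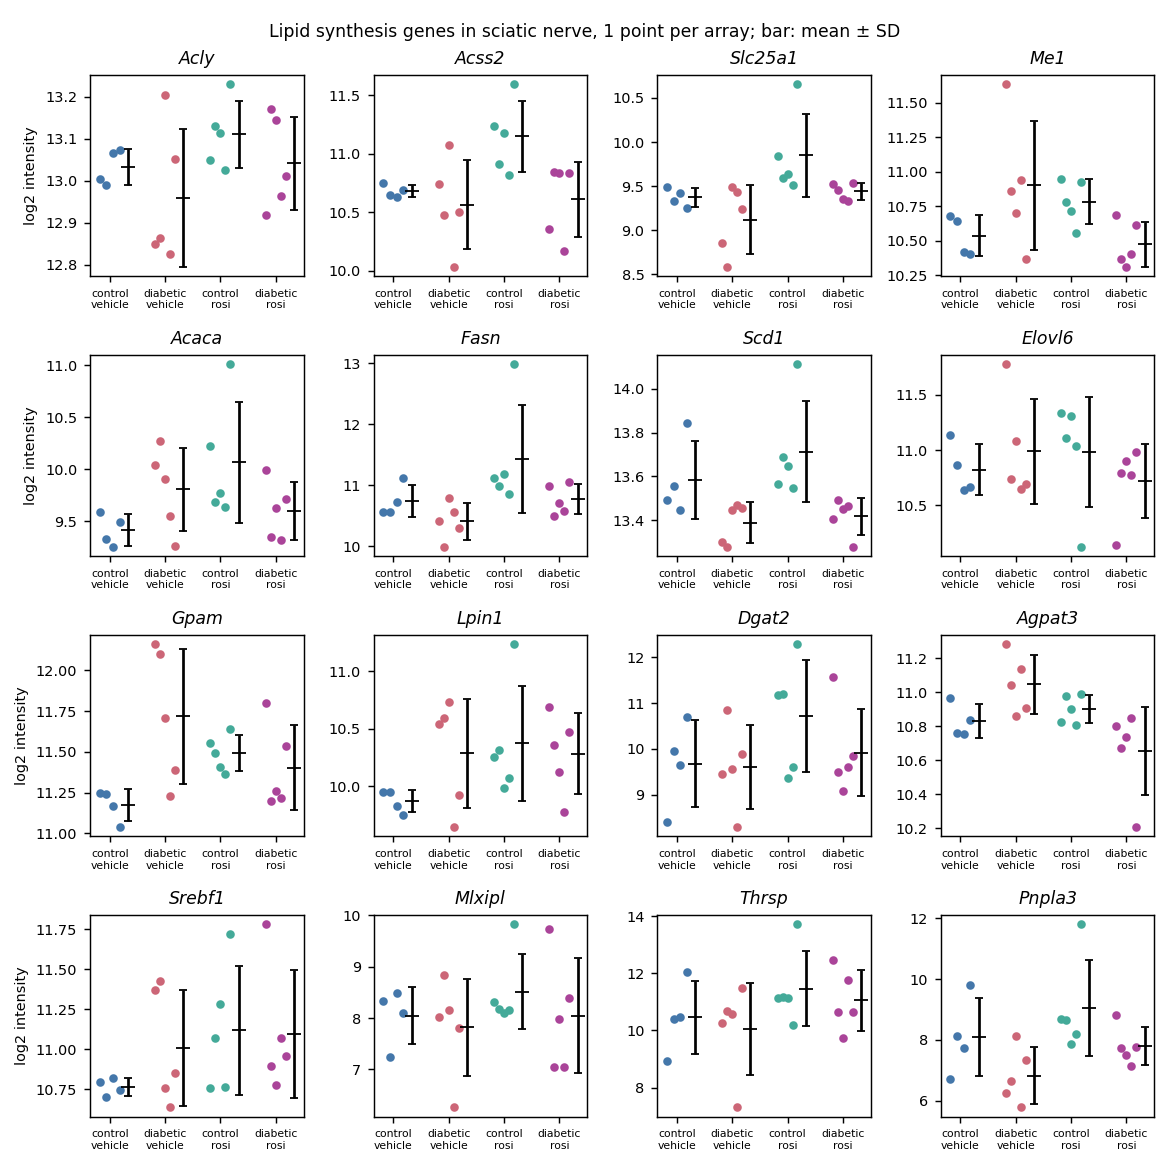
Log2 intensity (y axis) of selected genes in the 4 groups (x axis), with 1 point per array and a bar for the group mean ± SD. Points of Thrsp, Dgat2 and Pnpla3 spread over several log2 units within a group, while those of Acly stay within 12.82 to 13.23.

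Single arrays stood out across the genes. CR715 held the highest value of all 19 arrays in 16 of the 33 genes (10.6% of all tested genes). It held the lowest in 6 of 33, near the share over all tested genes (12.4%). Among the 16 were Fasn, Acaca, Acacb, Acly, Slc25a1 and Acss2 of chain synthesis and its supply, and Agpat2, Lpin1, Dgat1 and Dgat2 of triglyceride assembly. The 6 were Acsl3, Elovl1, Elovl6, Elovl7, Fads1 and Scd2. On this array the summed intensity of brown fat markers was 14.02 on the log2 scale, against 10.19 to 12.86 on the others, that of Schwann cell markers was the lowest at 15.30, and Mbp was lowest at 13.83. DV709, which had the lowest Adipoq, was lowest in 10 genes (8.15% of all tested genes), among them Thrsp, Dgat2, Pnpla3, Mlxipl, Srebf1, Acsl5 and Lpin1. DV707 was lowest in 6 of 33, including Fasn, Slc25a1 and Tecr, near the share over all tested genes (13.7%).

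**Figure D2:**
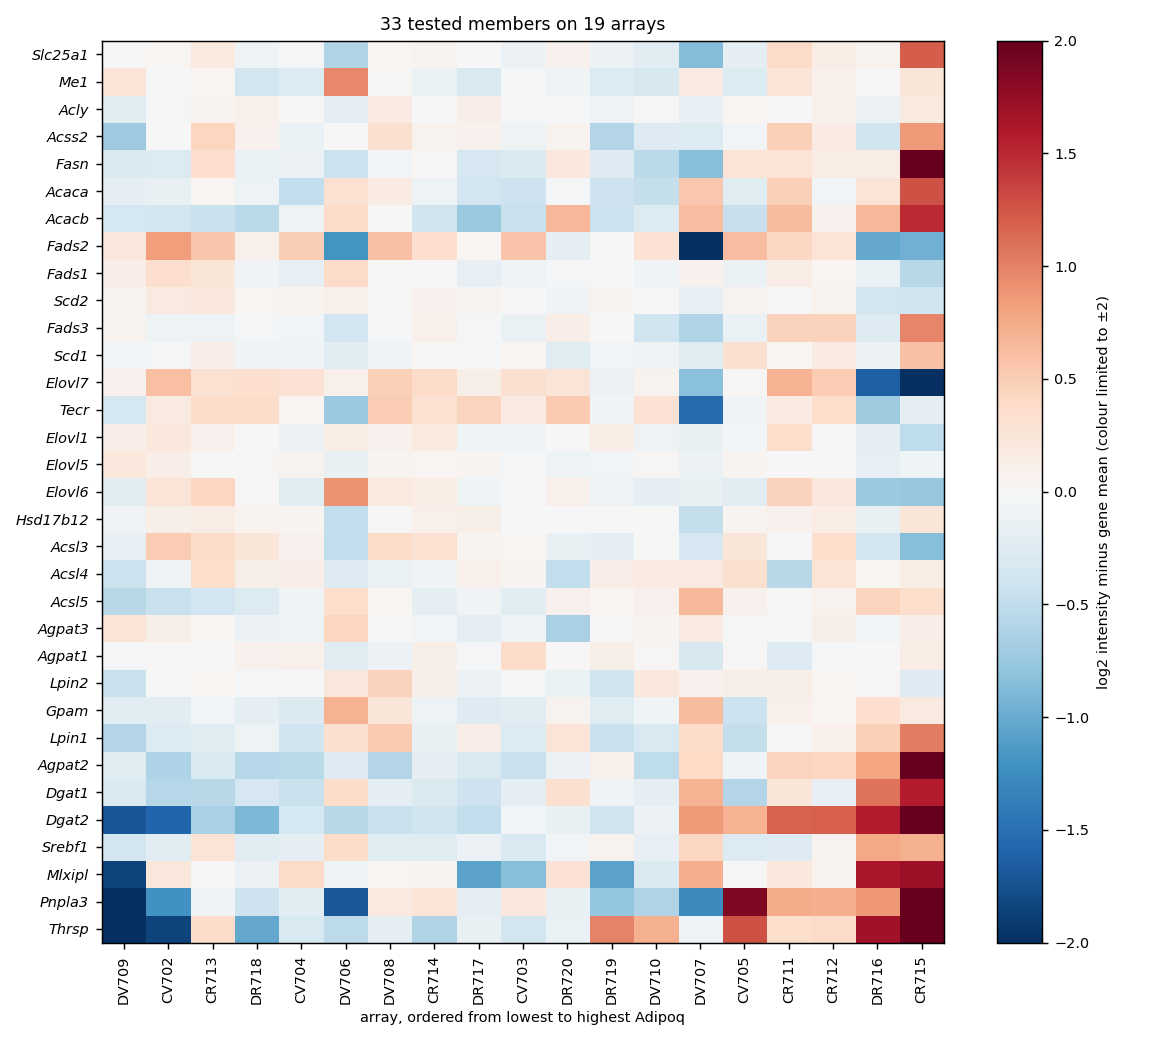
Log2 intensity minus the gene mean (colour, limited to ±2) of the 33 tested genes (rows, by role) on the 19 arrays (columns, ordered from lowest to highest Adipoq). CR715, the array with the highest Adipoq, is highest in 16 genes (10.6% of all tested genes) and lowest in 6 (12.4% of all tested genes).

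Thrsp, Dgat2 and Acsl5 rose with Adipoq. The slope of each gene on Adipoq within the 4 groups was taken from a limma fit with group means, as log2 units per log2 unit of Adipoq. In bulk tissue, fewer fat cells and less RNA per fat cell cannot be told apart, so the slope describes RNA content only. Over all genes 236 of 13459 passed an adjusted p of 0.05 (1.75%), of which 190 rose (1.41%) and 46 fell (0.342%) with Adipoq. Among the 33 genes 3 rose and 0 fell, and at an unadjusted limma p under 0.05 the counts were 7 and 1 (background 8.02% and 6.95%). Thrsp rose by 0.57 (SE 0.10, limma adjusted p = 0.0044). Dgat2 rose by 0.39 (SE 0.09, limma adjusted p = 0.0277). Acsl5 rose by 0.13 (SE 0.03, limma adjusted p = 0.0135). Pnpla3 had a slope of 0.35 (SE 0.12, limma adjusted p = 0.164) and Mlxipl one of 0.22 (SE 0.10, limma adjusted p = 0.307), neither past the threshold.

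Of the 3 genes that make the chain, Acacb had the largest slope, 0.12 (SE 0.07, limma adjusted p = 0.473), and none passed. Fasn was at 0.03 (SE 0.07), Acly at 0.02 (SE 0.02), Scd1 at 0.01 (SE 0.02), Acaca at 0.05 and Srebf1 at 0.07 log2 units per log2 unit of Adipoq. In triglyceride assembly 6 of 8 slopes were above 0, with Dgat1 and Agpat2 at 0.12 each beside Dgat2. The other Dgat1 probe set had a slope of 0.004, and the other Acacb probe set one of -0.024. All 6 elongation genes and 4 of 5 desaturases had slopes below 0, none of them past the threshold, against 52.5% of all genes. The lowest values were -0.15 for Fads2, -0.12 for Elovl7 and -0.05 each for Acsl3, Tecr and Fads1.

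**Figure D3:**
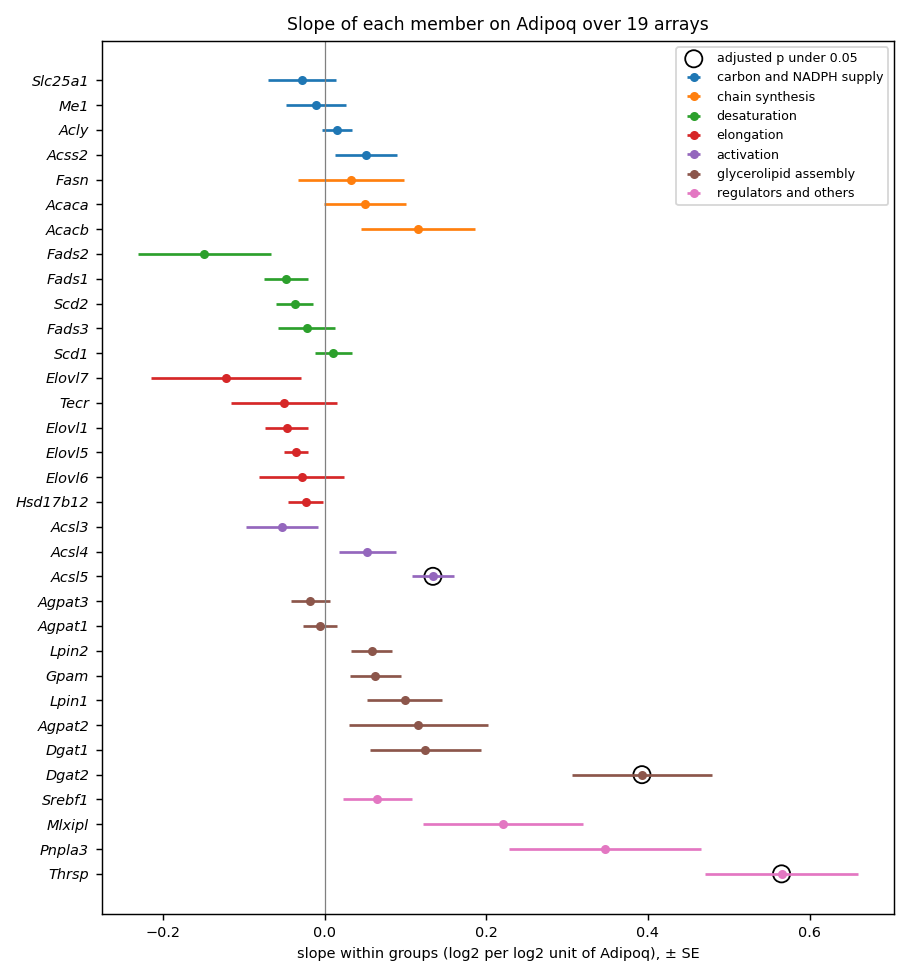
Slope of each of the 33 genes on Adipoq within groups (x axis, log2 units per log2 unit of Adipoq, bars ± SE), with genes on the y axis coloured by role and a ring where the limma adjusted p was under 0.05. Thrsp, Dgat2 and Acsl5 carry a ring, and the elongation genes lie below 0.

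These calls rested on few arrays. The count over all genes was 76 without DV709 and 157 without DV707, against 236 with every array. Without DV709 the slopes were 0.67 for Thrsp (limma adjusted p = 0.0887) and 0.15 for Acsl5 (limma adjusted p = 0.197), and neither passed. Dgat2 no longer passed without CV702 (slope 0.39, limma adjusted p = 0.0642), CV705 (0.38, limma adjusted p = 0.0611), DV707 (0.37, limma adjusted p = 0.0682) or CR713 (0.37, limma adjusted p = 0.0517). Without both arrays farthest from the median Adipoq, DV709 and CV702, all of these slopes were larger. Thrsp was then at 0.99 (limma adjusted p = 0.0542), Dgat2 at 1.11 (limma adjusted p = 0.00108), Acsl5 at 0.27 (limma adjusted p = 0.0478) and Agpat2 at 0.77 (limma adjusted p = 0.0299). With CR715 left out as well, a setting chosen after seeing the data, Dgat2 remained past the threshold at 1.04 (limma adjusted p = 0.0111), while Thrsp was at 0.72 (limma adjusted p = 0.357) and Acsl5 at 0.25 (limma adjusted p = 0.273). Thrsp has 3 probe sets, whose slopes ran from 0.06 to 0.57, and the slopes of both Dgat2 probe sets were 0.37 and 0.39.

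**Figure D4:**
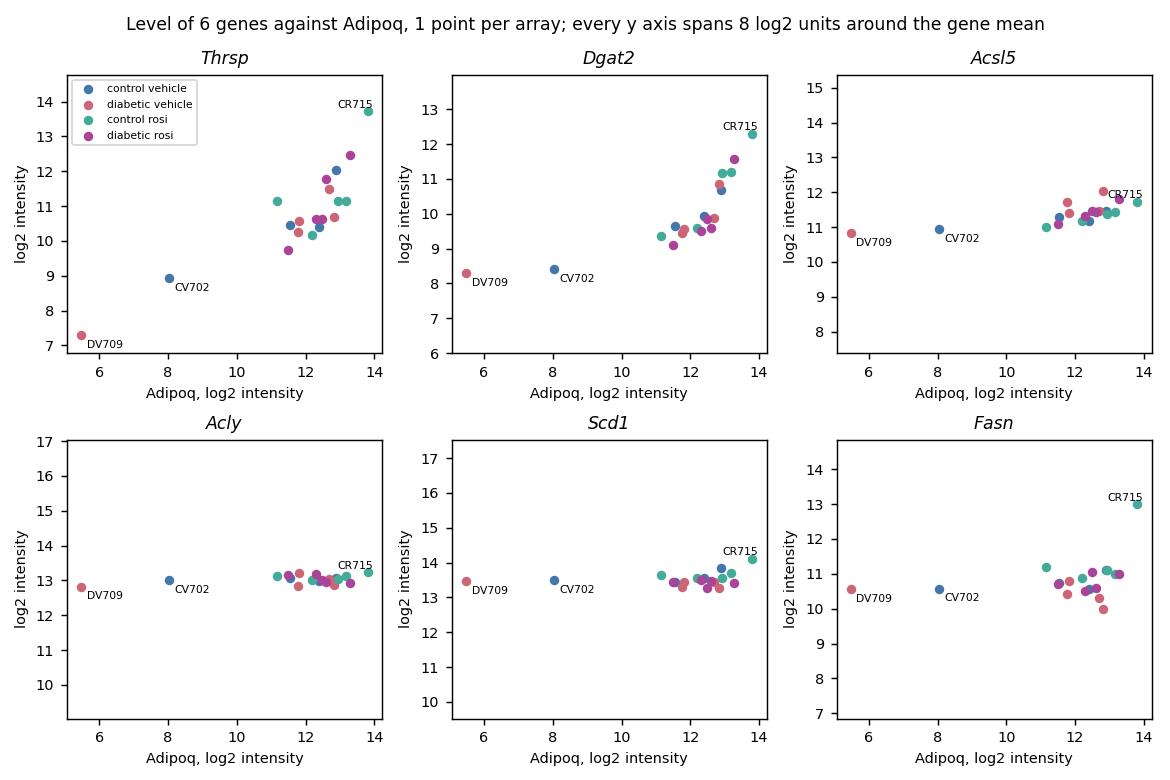
Log2 intensity of 6 genes (y axes, each spanning 8 log2 units around the gene mean) against log2 intensity of Adipoq (x axis), with 1 point per array coloured by group. Thrsp and Dgat2 are lowest or near lowest on DV709 and CV702, at Adipoq levels of 5.48 and 8.04. Acly and Scd1 stay nearly level over the same range. Fasn, whose slope is also near 0, runs from 9.99 on DV707 to 12.99 on CR715.

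Muscle and sensory neuron transcripts also varied, so a further fit held Adipoq, the muscle gene Acta1 and Isl1 together beside the group means, over 13457 genes. Per log2 unit of Adipoq, Acsl5 (0.15), Dgat1 (0.16), Dgat2 (0.45) and Thrsp (0.58) then rose, as did 8.49% of all genes. Elovl7 (-0.19), Fads2 (-0.21) and Tecr (-0.11) then fell, as did 6.19% of all genes. With Isl1, 5 of 33 rose (Acsl3, Elovl7, Fads2, Scd2 and Tecr, background 17.5%) and 7 of 33 fell (Acaca, Acacb, Acsl5, Agpat2, Dgat1, Dgat2 and Srebf1, background 22.3%), shares close to those of all genes. The Isl1 slopes of the first set ran from 0.04 for Scd2 to 0.24 for Elovl7, and those of the second from -0.21 for Dgat2 to -0.06 for Acsl5. None of the 33 passed the limma threshold for a slope on Acta1, where 0.342% of all genes rose and 0.0446% fell.

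Relative to Adipoq, the genes mostly varied more than on their own, which the wide spread of Adipoq largely fixed in advance. A gene whose own SD is far below that of Adipoq must vary more once Adipoq is subtracted, whatever its relation to Adipoq. Taking each gene's log2 intensity minus that of Adipoq on the same array, the SD over 19 arrays was below that of the gene alone for 1 of 34 genes, Thrsp (1.07 against 1.34), and the SD of Adipoq itself was 1.96. Without CV702 and DV709 the SD of Adipoq was 0.709 and 5 of 34 genes varied less relative to it. These were Dgat2 (0.44 against 0.92), Agpat2 (0.51 against 0.78), Thrsp (0.66 against 0.98), Dgat1 (0.55 against 0.60) and Pnpla3 (1.01 against 1.26). The Thrsp difference from Adipoq was -0.75 ± 1.21 (SD, n = 4) in control vehicle, -0.85 ± 1.54 (SD, n = 5) in diabetic vehicle, -1.18 ± 1.04 (SD, n = 5) in control rosiglitazone and -1.39 ± 0.51 (SD, n = 5) in diabetic rosiglitazone. For Dgat2 it was -1.55 ± 1.30, -1.31 ± 2.32, -1.93 ± 0.41 and -2.52 ± 0.50 in the same order of groups and numbers of arrays. For Acly it was 1.81 ± 2.18, 2.04 ± 3.01, 0.46 ± 0.97 and 0.61 ± 0.73, the reverse of the order of the Adipoq group means. The vehicle means were raised by 1 array each. For Dgat2 the difference was 2.81 on DV709 and -2.81 to -1.97 on the other diabetic vehicle arrays. It was 0.36 on CV702 and -2.46 to -1.89 on the other control vehicle arrays. For Acly it was 7.34 on DV709 against 0.05 to 1.39, and 4.97 on CV702 against 0.18 to 1.53. These differences are values with no test, and the group means are not read as an effect of the drug.

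The promoter sequences of Thrsp and Acsl5, which rose with Adipoq, are set beside that of Fasn, whose slope was near 0 with every array. The slope of Fasn without DV709 and CV702 is not given here. No promoter window was available for Dgat2, which also rose. They are the 250 bases before the start site, from RefSeq on GRCm38.p6, written 5' to 3' on the gene's strand with CCAAT or its reverse complement ATTGG in capitals. Thrsp lies on the minus strand at chr7:97417551-97417800, Acsl5 on the plus strand at chr19:55253119-55253368 and Fasn on the minus strand at chr11:120824548-120824797.
Thrsp: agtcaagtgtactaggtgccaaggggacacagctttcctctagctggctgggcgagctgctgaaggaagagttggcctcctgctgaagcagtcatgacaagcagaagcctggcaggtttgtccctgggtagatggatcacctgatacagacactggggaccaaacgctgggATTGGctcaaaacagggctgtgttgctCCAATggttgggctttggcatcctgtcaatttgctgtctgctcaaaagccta
Acsl5: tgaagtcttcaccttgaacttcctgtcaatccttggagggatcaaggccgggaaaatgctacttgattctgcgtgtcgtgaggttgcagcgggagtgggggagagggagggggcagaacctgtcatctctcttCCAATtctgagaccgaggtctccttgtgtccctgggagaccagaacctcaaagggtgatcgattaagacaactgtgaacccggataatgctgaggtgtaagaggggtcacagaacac
Fasn: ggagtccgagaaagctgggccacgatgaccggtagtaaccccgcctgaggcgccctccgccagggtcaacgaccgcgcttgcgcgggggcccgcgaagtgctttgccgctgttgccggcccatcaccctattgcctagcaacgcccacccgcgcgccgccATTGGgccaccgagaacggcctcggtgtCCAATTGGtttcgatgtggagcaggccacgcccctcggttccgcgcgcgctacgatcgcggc
CCAAT is the core of the motif bound by NF-Y, a factor that helps to activate many lipid synthesis genes. It began 79 and 52 bases before the start site in Thrsp, 117 bases before it in Acsl5, and 90, 62 and 59 bases before it in Fasn, where the last pair overlap as CCAATTGG. Counting both strands of the 300-base windows, from 250 bases before the start site to 50 after it, CCAAT was present for 21 of 29 genes with a window (72.4%), for 42.1% of the 10802 tested genes with one and for 41.1% of 27025 genes in all. GGGCGG, the GC box, was present for 20 of 29 (69.0%) and 67.0% of tested genes. CACGTG, the E-box, was present for 4 of 29 (Elovl5, Lpin2, Mlxipl and Slc25a1; 13.8%) and 11.5% of tested genes. The sterol regulatory element, searched as the sequence known from the LDL receptor gene, was in no window of the 29 and in 27 of the 27025. A match describes letters in a window and is not a measured binding site.

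Several synthesis genes lay higher in control mice given rosiglitazone than in those given vehicle, none past the adjusted threshold. The comparison asks what the drug does without diabetes. No gene of the 13460 passed (limma adjusted p under 0.05, 0.0%), while at an unadjusted p under 0.05 the counts were 199 higher and 182 lower. Of the 33 genes, 5 were higher and 0 lower at that unadjusted level, where 1.48% of all genes were higher and 1.35% lower. The median difference was 0.16 over the 33 and 0.00 over all genes, and 24 of 33 differences were above 0 (50.6% of all genes). All 4 genes of carbon and NADPH supply, all 3 of chain synthesis and all 4 regulators were above 0, and 6 of 8 in triglyceride assembly. In 5 genes the groups did not overlap, with every rosiglitazone array higher, namely Acaca, Acss2, Gpam, Lpin1 and Slc25a1 (background 1.58%), and in 0 with every array lower (background 1.87%). Markers of other cell types differed between the same groups. The summed log2 intensity of endothelial markers (8 of 8 measured) lay at 12.03 to 12.32 in control vehicle and 12.40 to 12.88 in control rosiglitazone, and that of fibroblast markers (6 of 6) at 16.07 to 16.14 and 15.87 to 15.97, with no overlap in either. Their part in the result was not tested.

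Fads3 had the smallest p, with a difference of 0.49 (SE 0.18, unadjusted p = 0.0145, limma adjusted p = 1.0). Acaca differed by 0.65 (SE 0.26), Fasn by 0.68 (SE 0.33), Slc25a1 by 0.48 (SE 0.21), Acss2 by 0.47 (SE 0.20) and Agpat2 by 1.03 (SE 0.45), each with a limma adjusted p of 1.0. The second Acaca probe set differed by 0.02, and the 3 Acss2 probe sets by -0.13 to 0.51. CR715, the array with Ucp1 and the highest Adipoq, held the highest value of each of these genes. Without it Acaca differed by 0.41, Fasn by 0.29, Slc25a1 by 0.27, Acss2 by 0.36, Agpat2 by 0.52 and Fads3 by 0.34. Leaving out an array cannot make groups overlap, so Acaca, Acss2, Gpam, Lpin1 and Slc25a1 had to stay apart without CR715. The count of genes with every rosiglitazone array higher stayed at 5 of 33 (background 4.47%). It stayed at 0 for every array lower (background 4.26%). Of 33 differences 29 were above 0 (background 54.5%), and the median was 0.21. At an unadjusted limma p under 0.05, 1 of the 33 passed without CR715, against 5 with every array. The share of all genes at that level without CR715 is not given here.

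Adipoq itself was at 12.65 ± 1.01 (SD, n = 5) in control rosiglitazone and 11.22 ± 2.19 (SD, n = 4) in control vehicle. Holding it equal changed some differences more than others. Where the drug changes Adipoq itself, this can also take out a response to the drug, which cannot be told apart from fat content here. The values also depend on the slope on Adipoq, which was larger for Thrsp and Dgat2 without DV709 and CV702. Thrsp differed by 1.01 between control rosiglitazone and control vehicle, and by 0.19 at equal Adipoq. Dgat2 went from 1.05 to 0.49. Fasn was at 0.64, Acaca at 0.58, Slc25a1 at 0.52, Fads3 at 0.52 and Acss2 at 0.40 at equal Adipoq, close to their values without it. No gene of 13459 passed at equal Adipoq (limma, 0.0%), with 172 higher and 224 lower at an unadjusted p under 0.05.

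In diabetic mice the picture with rosiglitazone was mixed. No gene of the 13460 passed (limma, 0.0%), with 556 higher (4.13%) and 749 lower (5.56%) at an unadjusted p under 0.05. Of the 33 genes, 1 was higher and 2 were lower at that level, and the median difference was 0.04, with 19 above 0 and 14 below. The sign of that median turned with the arrays used. It was -0.013 without DV709 (13 above 0 and 20 below), -0.075 without the 5 arrays low in Isl1 (10 above and 23 below), and 0.16 with the mean of all probe sets. Agpat3 was lower on every rosiglitazone array than on any vehicle array (background 0.386%, and 0.245% the other way, with 0 of the 33). It differed by -0.39 (SE 0.12, unadjusted p = 0.0036, limma adjusted p = 0.498). The 4 Agpat3 probe sets differed by -0.39 to -0.01, and the one used had the largest difference. Me1 differed by -0.43 (SE 0.17, limma adjusted p = 0.498) and Hsd17b12 by 0.22 (SE 0.10, limma adjusted p = 0.498). Without DV706 and DV707, the arrays with the high Gapdh 3' minus 5' difference, Me1 differed by -0.19 and Hsd17b12 by 0.03. Gpam differed by -0.31 with these arrays and by -0.04 without them. Fasn differed by 0.36 and Acaca by -0.20, and the second Acaca probe set by 0.40.

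The rosiglitazone differences were also averaged over both states, and the limits of holding Adipoq equal given above apply here too. Thrsp differed by 1.00 and by 0.16 at equal Adipoq, Dgat2 by 0.68 and 0.10, and Pnpla3 by 0.96 and 0.44. Fads3 differed by 0.36 (SE 0.12, limma adjusted p = 0.866) and by 0.39 at equal Adipoq, Slc25a1 by 0.40 and 0.44, and Fasn by 0.52 and 0.47. The 3 Fads3 probe sets differed by 0.007 to 0.36, and the one used had the largest difference. At an unadjusted limma p under 0.05, 3 of 33 were higher and 0 lower (background 2.25% and 2.99%), and 0 passed the adjusted threshold, as did 0.0% of all genes (303 higher and 402 lower unadjusted).

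**Figure D5:**
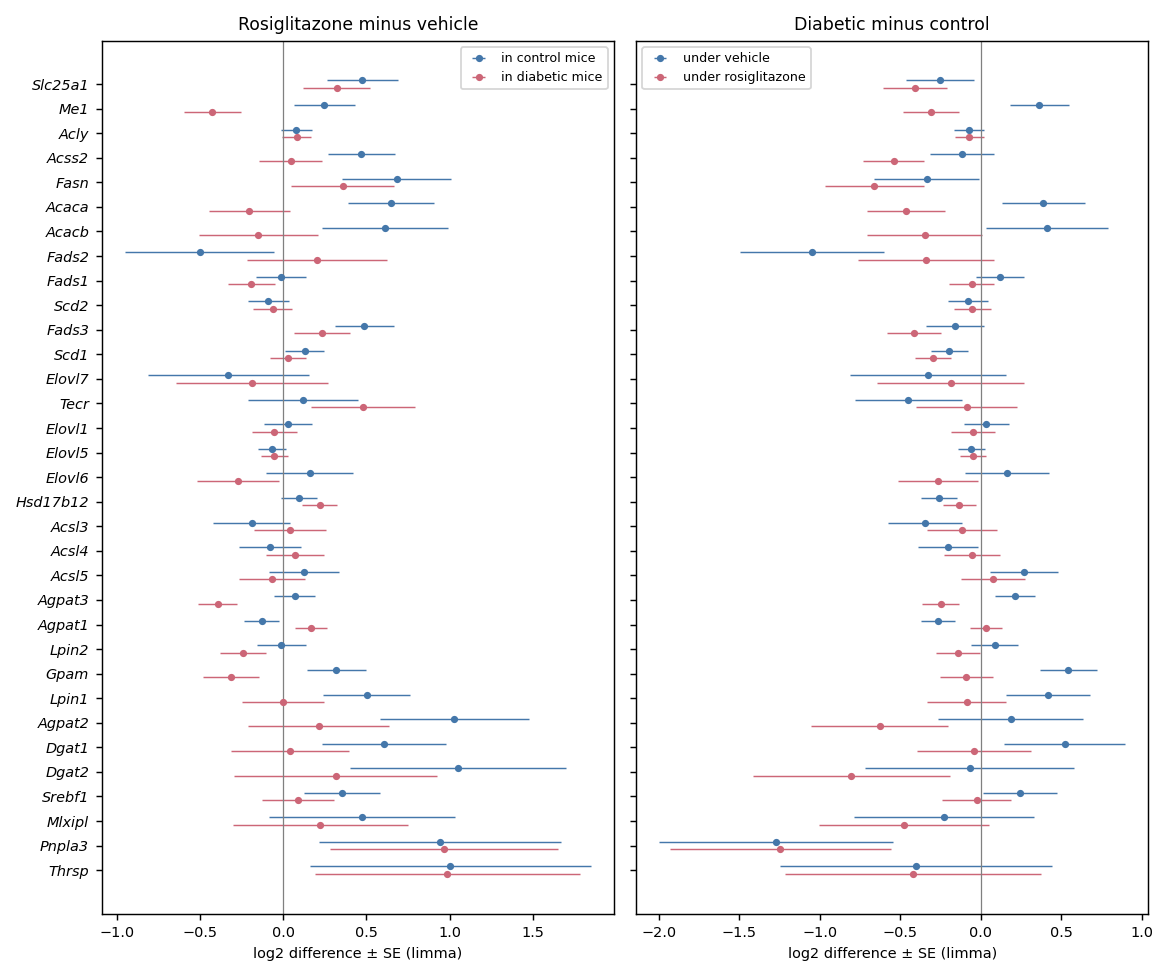
Log2 difference ± SE (x axis, limma) for each of the 33 genes (y axis), with the rosiglitazone differences in control and diabetic mice in one panel and the diabetes differences under vehicle and rosiglitazone in the other. Under rosiglitazone the diabetes differences lie below 0 in 31 of 33 genes, and no difference passes the adjusted threshold.

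Diabetes under vehicle gave values in both directions. No gene of the 13460 passed (limma, 0.0%), with 1444 higher (10.7%) and 995 lower (7.39%) at an unadjusted p under 0.05. Of the 33 genes, 1 was higher and 3 were lower at that level, the median difference was -0.07, and in 0 of them the groups did not overlap (background 2.63% higher and 2.43% lower). The median was 0.018 without DV709 (18 genes above 0 and 15 below), -0.0037 without the 5 arrays low in Isl1 (16 above and 17 below), and 0.014 with Acta1 and Isl1 as covariates, so its sign was not stable. Of those 5 arrays, 3 were diabetic vehicle and 0 control vehicle. Summed markers of endothelial cells (8 of 8 measured) lay at 12.03 to 12.32 in control vehicle and 12.47 to 14.07 in diabetic vehicle, and those of fibroblasts (6 of 6) at 16.07 to 16.14 and 15.71 to 16.00, without overlap, and their part in these differences was not tested. Gpam differed by 0.55 (SE 0.18, unadjusted p = 0.00669, limma adjusted p = 0.238) and by 0.070 on its other probe set, Agpat1 by -0.26 (SE 0.10, limma adjusted p = 0.245) and Hsd17b12 by -0.26 (SE 0.11, limma adjusted p = 0.251). Fads2 had the largest of these 4 differences, -1.05 (SE 0.45, limma adjusted p = 0.251). Without DV706 and DV707 the values were 0.27 for Gpam, -0.07 for Hsd17b12 and -0.26 for Fads2. Without DV710, 4 genes of all tested passed, none of them among the 33. At equal Adipoq 1833 of 13459 genes passed without DV710. Fads2 and Gpam were among them, and 2 of 33 is a smaller share than that over all genes.

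Under rosiglitazone, diabetic mice lay lower in most of the genes. No gene of the 13460 passed (limma, 0.0%), with 63 higher (0.468%) and 110 lower (0.817%) at an unadjusted p under 0.05. Of the 33 genes, 0 were higher and 5 lower at that level, 31 of 33 differences were below 0 (48.3% of all genes), and the median was -0.18. Acss2 differed by -0.54 (SE 0.19, unadjusted p = 0.0108, limma adjusted p = 1.0), Fasn by -0.66 (SE 0.31), Fads3 by -0.41 (SE 0.17), Scd1 by -0.30 (SE 0.11) and Agpat3 by -0.25 (SE 0.12), all with a limma adjusted p of 1.0. Scd1 was lower on every diabetic than on every control array (background 0.223%), and 0 genes were higher in that way (background 0.178%). This comparison and that of rosiglitazone in control mice share the control rosiglitazone arrays, so both hold CR715. Without CR715, 27 of 33 differences were below 0 (background 50.3%) with a median of -0.19, Fasn differed by -0.27 and Acss2 by -0.43. At an unadjusted limma p under 0.05, 2 of the 33 passed in that setting, against 5 with every array. The share of all genes at that level without CR715 is not given here. Without CR715 the groups did not overlap in 5 genes, each lower in diabetic mice, namely Elovl6, Fads1, Fads2, Lpin2 and Scd1 (background 1.2%). They were higher in 0 (background 0.78%). Over all arrays the 4 Lpin2 probe sets differed by -0.14 to 0.12, and only 1 of them lay below 0. Every probe set of Elovl6, Fads1, Fads2 and Scd1 lay below 0.

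Averaged over both treatments, 25 of 33 diabetes differences were below 0 (47.4% of all genes), with a median of -0.11 against 0.02 over all genes. At an unadjusted limma p under 0.05, 0 were higher and 8 lower (background 6.0% and 4.28%), and 0 passed the adjusted threshold (0.0% of all genes; 808 higher and 576 lower unadjusted). The 8 were Scd1, Hsd17b12, Pnpla3, Acss2, Fads3, Slc25a1, Fads2 and Fasn. Scd1 differed by -0.25 (SE 0.08, unadjusted p = 0.00694, limma adjusted p = 0.457), Pnpla3 by -1.26 (SE 0.50) and Fasn by -0.50 (SE 0.22). The other Scd1 probe set differed by -1.06. The 3 Fads3 probe sets differed by -0.29 to 0.22, with the one used at the lower end. Without DV706 and DV707, 28 of 33 lay below 0 with a median of -0.11, and without the 5 arrays low in Isl1 25 of 33 did, with a median of -0.080. With Acta1 and Isl1 as covariates 23 lay below 0, and without CV702, DV709 and CR715, a set chosen after seeing the data, 20 did, with a median of -0.064. Without DR718 or without DV710, 1 gene of all tested passed, none of the 33.

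The interaction compares the rosiglitazone difference in diabetic mice with that in control mice, and 0 of 13460 genes passed (limma, 0.0%; 253 higher, 1.88%, and 389 lower, 2.89%, at an unadjusted p under 0.05). The counts among the 33 were 0 higher and 4 lower at that level, with a median of -0.19, which was -0.10 without CR715 and -0.29 without DV709. Agpat3 was at -0.46 (SE 0.17), Me1 at -0.67 (SE 0.25), Gpam at -0.63 (SE 0.24) and Acaca at -0.85 (SE 0.35), each with a limma adjusted p of 0.748. Acaca's other probe set gave 0.39, with the opposite sign. Without DV706 and DV707 the values were -0.39, -0.44, -0.36 and -0.62 in the same order.

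A wider list of 42 pathway genes, of which 36 were tested, gave no limma call in any of the 7 group comparisons, as did 0.0% of all genes, with medians from -0.11 for diabetes averaged over treatments to 0.08 for rosiglitazone averaged over states. At an unadjusted limma p under 0.05, rosiglitazone in control mice gave 5 of 36 higher and 0 lower (background 1.48% and 1.35%), with Gpd1, Aacs, Mcat, Pcx and Cbr4. Rosiglitazone in diabetic mice gave 0 higher and 1 lower (background 4.13% and 5.56%), and averaged over states 5 and 0 (background 2.25% and 2.99%). Diabetes under vehicle gave 3 higher and 2 lower (background 10.7% and 7.39%), under rosiglitazone 0 and 2 (background 0.468% and 0.817%), and averaged over treatments 0 and 2 (background 6.0% and 4.28%). For the interaction the counts were 0 and 1 (background 1.88% and 2.89%). With Adipoq, 2 of 36 rose and 0 fell (background 1.41% and 0.342%). Gpat3, an acyltransferase of glycerol phosphate, rose by 0.48 (limma adjusted p = 0.00466) and Cebpa, a transcription factor of fat cells, by 0.24 (limma adjusted p = 0.0268) per log2 unit of Adipoq. Pparg, the receptor for rosiglitazone, was at 0.47 (limma adjusted p = 0.0998), and Mogat1, an acyltransferase of monoacylglycerol, at 0.46 (limma adjusted p = 0.0593).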

How the data were processed

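RNA of 19 DBA/2J mice, labelled as sciatic nerve, was measured on Affymetrix mouse arrays, 1 array per mouse. The deposited file holds 1 linear intensity for every probe set and array. RMA is named, with no version, in the submitters' processing notes. How RMA's log2 output became linear is not stated there. Per the labels, RNA was column-purified, amplified and biotin-labelled. Array medians ran from 83.3 to 101.7. The number of arrays limits the precision.

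Groups came from the sample titles. Intensities were log2-transformed without an offset. Of 45037 probe sets that are not controls, 34945 had 1 symbol in the platform annotation, 932 several and 9160 none listed, and the gene identifiers of 34741 matched the RefSeq gene table with 0 symbols changed. For each of 18193 genes the single-symbol probe set highest on average was used. Genes whose mean exceeded the 40th percentile of probe sets, a log2 intensity of 5.54, were tested. A mean per group was fitted to all arrays with limma 3.58.1 in R 4.3.3 (lmFit and eBayes), with Benjamini-Hochberg adjustment over all tested genes at 0.05, for 7 group comparisons. These were repeated with Adipoq of each array as covariate, whose coefficient is the slope on Adipoq. Adipoq itself was left out of those counts. Absence of overlap between groups and differences from Adipoq are descriptions. The fitting was tested on simulated data. Since each array is 1 mouse, the p-values reflect spread between animals, tissue content and RNA quality included.

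The members and lists were chosen with earlier results of these data known. Values on every array are given for the core enzymes and regulators, for the 3 members with the smallest p in each group comparison, and for the 5 members at either end of the slopes. The others are given by range and count. Alternatives were the filter, the mean of probe sets, quantile normalization, array weights, each array left out, sets of arrays left out, the Gapdh 3' minus 5' difference, Acta1 and Isl1 or the adipocyte marker mean as covariate, and a fit of only the groups compared. Promoter windows came from RefSeq on GRCm38.p6.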

Additional observations from a re-analysis of the deposited data

Results flagged for a closer look

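For each of the 34 measured genes and Adipoq, the gap between the highest or lowest array and its nearest neighbour, divided by the group's range, was compared with Dixon's critical value in each of the 4 groups. Of 140 such tests, 20 passed, where chance passes about 1 in 20. In control rosiglitazone, 12 were set by CR715. It was high in Fasn (ratio 0.850), Scd1 (0.747), Agpat2 (0.747), Lpin1 (0.733), Pnpla3 (0.794), Thrsp (0.722), Mlxipl (0.872) and Slc25a1 (0.719). It was low in Elovl6 (0.753), Elovl7 (0.854), Fads2 (0.813) and Lpin2 (0.791). The arrays of a group share their tissue content across genes, so these are not independent of each other. CR715 was also the array with Ucp1 at 11.04, and the part of fat content in these values was not tested.

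In diabetic rosiglitazone, DR716 was low in Elovl6 (0.755), Elovl7 (0.763) and Fads2 (0.739), and DR720 was low in Agpat3 (0.725) and Acsl4 (0.838). Agpat3 lay at 10.21 on DR720, and the next array of that group at 10.67. In control vehicle, CV702 was high in Fads1 (0.831) and CV705 was high in Lpin2 (0.885), the latter at 10.15 against 10.03 for the next array. In diabetic vehicle, Adipoq was low on DV709 (0.857), at 5.48 against 11.77 for the next array.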

How the results depend on the processing

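The group comparisons gave 0 genes past the limma threshold under most alternatives. The exceptions were 20 genes for rosiglitazone in control mice with array weights (79 at equal Adipoq), 0 to 1 for diabetes averaged over treatments with single arrays left out, 2 for it at equal Adipoq with the adipocyte marker mean as covariate and 0 to 1 with single arrays left out, and 0 to 1 for the interaction at equal Adipoq with single arrays left out. Diabetes under vehicle gave 0 to 4 genes with single arrays left out, and at equal Adipoq 0 to 1833 of 13459. Of the 33, 0 to 2 were among the latter. The upper ends were without DV710, where the share among the 33 was below that over all genes. The cause was not tested. For the slope on Adipoq, 236 of 13459 genes passed. The counts were 1975 with Acta1 and Isl1 as covariates, 727 with the adipocyte marker mean and 810 with array weights. They were 145 without DV706 and DV707, 91 without the 5 arrays low in Isl1 and 76 to 329 with single arrays left out. Without CV702, DV709 and CR715, an alternative chosen after seeing the data, 79 passed. Of the 33 genes 3 passed, against 7 with Acta1 and Isl1, 6 with array weights, 1 without the 5 arrays low in Isl1, 1 without CV702, DV709 and CR715, and 1 to 3 with single arrays left out. The Dgat2 call was also lost with the mean of all probe sets (slope 0.38, limma adjusted p = 0.0580) and with the Gapdh covariate (0.37, limma adjusted p = 0.0766). Pnpla3 passed with the adipocyte marker mean (0.57, limma adjusted p = 0.0134) and array weights (0.41, limma adjusted p = 0.00304). The sign turned for Mlxipl, from 0.22 to -0.018 with array weights and to -0.11 when the 5 arrays low in Isl1 were left out, and for Tecr, from -0.05 to 0.028 with the Gapdh covariate and 0.021 without DV706 and DV707. For single genes 917 of the alternative values kept direction and side of the threshold. No paired analysis was possible because no replicate number is shared between groups.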
